A study of Mus musculus with 12 samples.

Results

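The genes described here are 10 members of the bone morphogenetic protein (BMP) system, the ligands Bmp2, Bmp3, Bmp4, Bmp5, Bmp6 and Bmp7, the type 1 receptors Bmpr1a, Bmpr1b and Acvr1, and the type 2 receptor Bmpr2. They were taken by gene symbol from an RNA-seq table of 25203 genes, and were chosen with earlier results of these data known. RNA was measured in 12 libraries from cultures of primary mouse intestinal stromal cells that carry a low signal of a nuclear GFP reporter at Pdgfra, which encodes a receptor for platelet-derived growth factor and is used as a marker of the gut stroma. The 4 groups of 3 libraries were Tgfbr2KO cultures given TGFB1 (TGFB1_KO), Tgfbr2KO cultures given vehicle (Vehicle_Tgfbr2KO), cultures not labelled KO given TGFB1 (TGFB1), and cultures not labelled KO given vehicle (Vehicle). The design names the reporter and its low signal for the treated cultures and does not restate them for the Tgfbr2KO cells, which were cultured in parallel. TGFB1 is a secreted ligand that binds the type 2 receptor Tgfbr2, and the design uses the knockout to measure responses that do not pass through it. The dose, the length of the treatment, the age of the mice, the deleted part of Tgfbr2, the means of deletion and whether libraries came from separate animals are not given in the sources used here.

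BMPs are secreted dimers of the TGF-beta superfamily. A BMP dimer brings type 1 and type 2 receptor kinases together, the type 1 receptor phosphorylates SMAD1, SMAD5 and SMAD9, and these enter the nucleus with SMAD4 and switch on genes such as those of the Id family. In the intestine, stromal cells around the villus and the crypt top are a known source of BMPs, which favour differentiation of the epithelium, while stromal cells below the crypt secrete antagonists such as Grem1, which protect the stem cell zone. TGF-beta and BMP ligands use largely, but not wholly, separate type 1 receptors and SMADs, and they share SMAD4 and the inhibitory SMADs.

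Promoter sequence is shown for the 3 members whose TGFB1 response differed between the genotypes, Bmp4, Bmp6 and Acvr1, because these carry the main result below. The sequences are the 250 bases upstream of the annotated start in RefSeq (build GRCm38.p6), written 5′ to 3′ on the gene's own strand. They lie at chr14:46390670-46390919 on the minus strand for Bmp4, at chr13:38345466-38345715 on the plus strand for Bmp6 and at chr2:58566829-58567078 on the minus strand for Acvr1. Capitals mark a match, on either strand, to the SMAD box CAGAC, the GC-rich SMAD motif GGCGCC, the AP-1 motif TGANTCA or the TGF-beta inhibitory element.
Bmp4: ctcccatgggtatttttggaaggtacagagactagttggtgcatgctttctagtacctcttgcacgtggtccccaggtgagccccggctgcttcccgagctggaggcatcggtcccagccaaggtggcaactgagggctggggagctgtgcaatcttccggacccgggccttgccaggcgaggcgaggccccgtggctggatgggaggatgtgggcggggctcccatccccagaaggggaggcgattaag
Bmp6: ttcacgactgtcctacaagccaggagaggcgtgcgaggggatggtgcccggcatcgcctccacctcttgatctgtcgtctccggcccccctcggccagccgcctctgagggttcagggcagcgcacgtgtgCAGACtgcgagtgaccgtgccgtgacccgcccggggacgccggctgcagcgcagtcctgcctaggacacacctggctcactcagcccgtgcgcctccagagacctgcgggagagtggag
Acvr1: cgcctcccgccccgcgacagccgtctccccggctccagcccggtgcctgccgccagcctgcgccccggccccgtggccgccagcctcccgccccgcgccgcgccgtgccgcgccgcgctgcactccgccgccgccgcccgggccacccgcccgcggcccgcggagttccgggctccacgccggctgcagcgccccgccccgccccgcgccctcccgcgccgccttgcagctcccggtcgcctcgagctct
The Bmp6 window held 1 SMAD box, and the Bmp4 and Acvr1 windows held none of the 4 motifs. The SMAD box was present in 42.2% of all 32851 windows of this length, GGCGCC in 9.59%, TGANTCA in 6.75% and the TGF-beta inhibitory element in 0.791%. GC content was 63.2% for Bmp4, 68.8% for Bmp6 and 85.6% for Acvr1, against a median of 52.4% over all windows. Of the 10 members, 7 had a window in the RefSeq table.

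Fibroblast markers were abundant, with the summed level of 8 of them between 2953 and 10200 FPKM (fragments per kilobase of transcript, scaled for the depth of the library) in every library. Markers of smooth muscle and pericytes were also abundant, with 8 genes summing to 1546 to 3235 FPKM. The 8 enteric glia and neuron genes summed to 143 to 227 FPKM. Of these, 7 never reached 1 FPKM in any library, so 1 gene held nearly all of that sum. Marker sums of other types spanned 14.2 to 659 FPKM for 8 macrophage and leukocyte genes, 3.20 to 66.0 FPKM for 8 epithelial genes and 1.64 to 27.0 FPKM for 8 endothelial genes. Tgfbr2, the targeted gene, ranged over 31.6 to 62.4 FPKM in TGFB1_KO, 27.0 to 41.9 FPKM in Vehicle_Tgfbr2KO, 56.5 to 74.6 FPKM in TGFB1 and 38.2 to 78.8 FPKM in Vehicle. The genotypes thus overlapped in whole-gene Tgfbr2 level, and a level summed over the gene does not check the deletion of a part of it. Depth, estimated from the whole-read steps of low values, was 16900000 to 28300000 fragments per library, and 16900000 to 18100000 in TGFB1 against 21700000 to 23700000 in Vehicle.

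The members spanned a wide range of levels, and the receptors were more abundant than most of the ligands. FPKM is per transcript length, so levels can be set beside each other between genes. In Vehicle the mean level was highest for Bmpr1a, followed by Acvr1, Bmp4 and Bmpr2, and the libraries of each neighbouring pair in that order overlapped. Bmpr1b stood lower at 5.24 ± 0.477 FPKM (SD, n = 3), and Bmp2 and Bmp6, which overlapped, lower again near 1.5 FPKM. Bmp5, Bmp7 and Bmp3 stayed below 1 FPKM in all 12 libraries. In TGFB1 the order of the first members was Acvr1, Bmpr1a, Bmpr2, Bmpr1b and Bmp4 with no overlap between neighbours. In both Tgfbr2KO groups Bmp4 had the highest mean of the 10, and its libraries overlapped those of Bmpr1a.

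**Figure D1:**
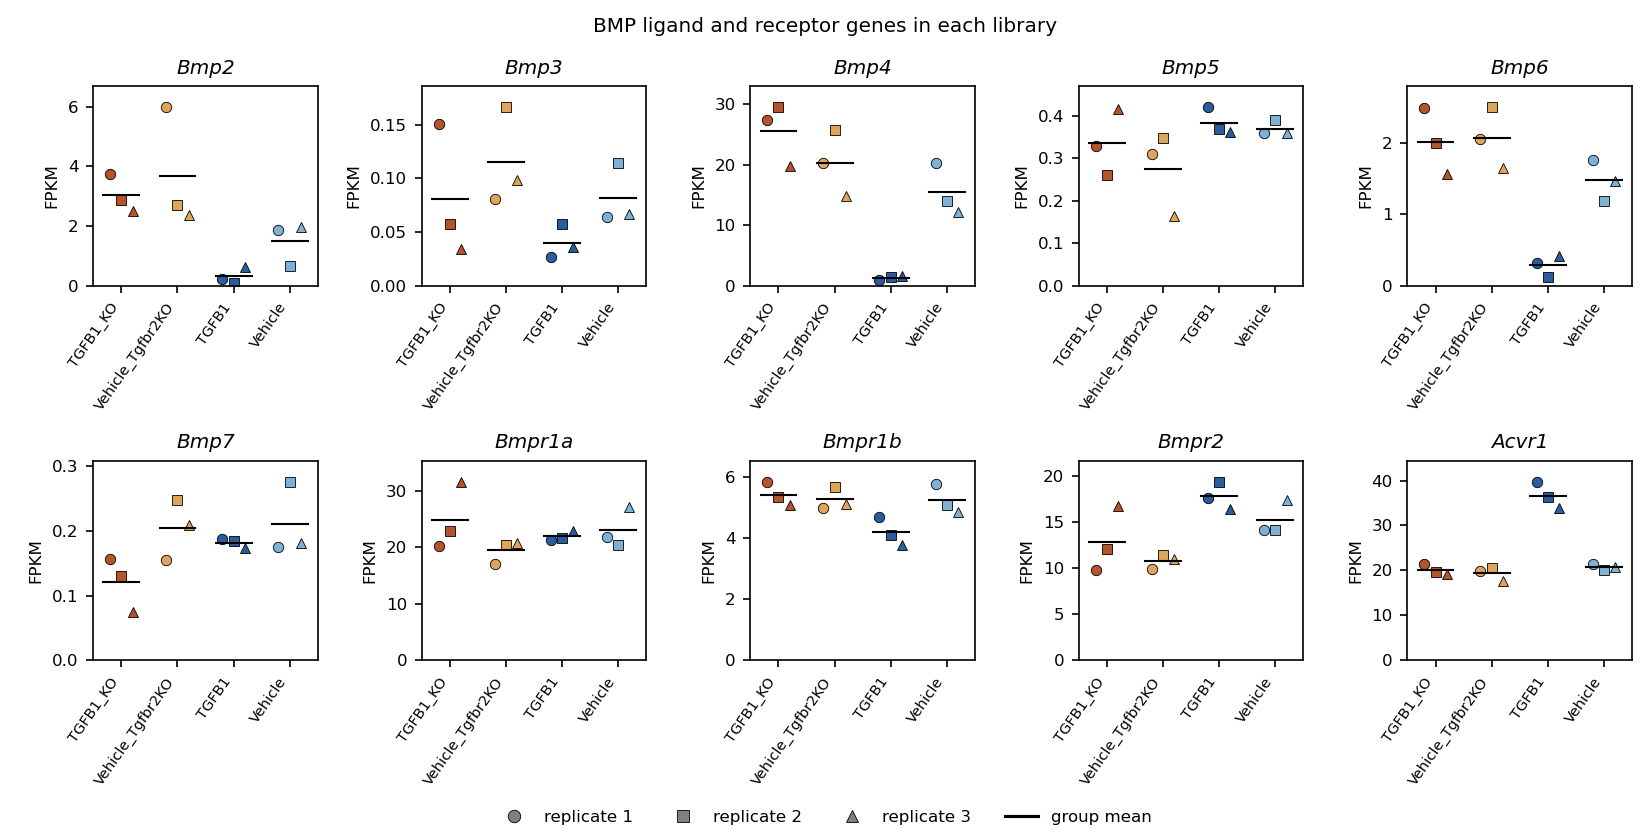
Level of each of the 10 BMP ligands and receptors in the 12 libraries, in FPKM on a linear axis, by group (TGFB1_KO, Vehicle_Tgfbr2KO, TGFB1, Vehicle). Points are libraries and lines are group means of 3 libraries. The 3 TGFB1 libraries lie below the 9 others for Bmp2, Bmp4 and Bmp6 and above them for Acvr1.

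The question of the first comparison is how levels differed with added TGFB1 in cultures not labelled KO. Bmp4, Bmp6 and Bmp2 fell in TGFB1 relative to Vehicle, the type 1 receptor Bmpr1b fell slightly, and the type 1 receptor Acvr1 rose, while Bmpr1a and Bmpr2 did not pass the test. Of the 10 members, 7 reached 1 FPKM in at least 3 libraries and were tested, and 5 of these passed an adjusted p of 0.05 in limma, 1 upward and 4 downward. Among all 12641 genes tested, 31.9% passed in this comparison, 17.3% upward and 14.6% downward, and 47.9% had no overlap between the groups. Scaling libraries to equal FPKM sums in place of the deposited scale shifted the median log2 change of all genes by -0.12 and left 29.5% of the called genes upward, against 54.2% on the deposited scale. The 5 called members kept their direction and their call under that scaling. Fold changes below are ratios of group mean FPKM, and log2 changes are on the log2(FPKM + 1) scale, which understates the change of genes near 1 FPKM.

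Bmp4, a ligand of the villus and crypt-top stroma, had 0.863, 1.34 and 1.53 FPKM in TGFB1 replicates 1 to 3, against 20.3, 14.0 and 12.2 FPKM in Vehicle. Every TGFB1 library was below every Vehicle library. The mean was 1.24 ± 0.343 FPKM in TGFB1 and 15.5 ± 4.26 FPKM in Vehicle (SD, n = 3 each), 12.5-fold lower in TGFB1. The log2 change was -2.86 (SE 0.23, limma adjusted p = 1.99e-05). Between same-numbered libraries the level was 23.5-fold, 10.4-fold and 8.01-fold lower in TGFB1. These levels correspond to about 22 to 51 reads per TGFB1 library and about 381 to 853 reads per Vehicle library, depending on the transcript taken. In bulk RNA, fewer cells that express a gene and less RNA per cell cannot be told apart, and this holds for every level given here.

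Bmp6, a ligand best known for the control of iron through hepcidin in the liver, had 0.313, 0.125 and 0.413 FPKM in TGFB1, against 1.76, 1.19 and 1.47 FPKM in Vehicle. The groups did not overlap. The mean was 5.21-fold lower in TGFB1, and the log2 difference was -0.95 (SE 0.16, adjusted p = 0.00144 in limma). Bmp6 rested on about 1 to 25 reads per TGFB1 library and 11 to 135 reads per Vehicle library, depending on the transcript taken.

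Bmp2, a close relative of Bmp4 that binds the same type 1 receptors, had 0.226, 0.104 and 0.618 FPKM in TGFB1, against 1.87, 0.654 and 1.96 FPKM in Vehicle. The groups did not overlap, but TGFB1 replicate 3 lay just under Vehicle replicate 2. The mean was 4.73-fold lower in TGFB1, and the log2 difference was -0.89 (SE 0.31, adjusted p = 0.0475 in limma). The call was lost in 9 of the 12 fits that left out 1 library, among them those without TGFB1 replicate 1, 2 or 3 (adjusted p = 0.122, 0.135 and 0.0521) and those without Vehicle replicate 1 or 3 (0.139 each), and less widely without Vehicle_Tgfbr2KO replicate 2 or any TGFB1_KO replicate (0.0503 to 0.0650). Bmp2 rested on about 6 to 37 reads per TGFB1 library and 52 to 142 reads per Vehicle library.

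Bmp2, Bmp4 and Bmp6 met the level filter through groups other than TGFB1, so the count of ligands tested is itself tied to those groups. Bmp5, Bmp7 and Bmp3, a member that acts as an antagonist of other BMPs, did not meet it. Bmp5 had 0.419, 0.368 and 0.362 FPKM in TGFB1, against 0.358, 0.389 and 0.360 FPKM in Vehicle. Bmp7 had 0.188, 0.184 and 0.173 FPKM in TGFB1, against 0.175, 0.275 and 0.182 FPKM in Vehicle. The groups overlapped for both genes. Bmp3 had 0.0268, 0.0573 and 0.0360 FPKM in TGFB1, against 0.0641, 0.115 and 0.0666 FPKM in Vehicle. Its groups did not overlap, at levels worth only a few reads. In a fit over all 20501 genes with a value above 0, none of the 3 passed (limma adjusted p = 0.948 for Bmp5, 0.678 for Bmp7 and 0.445 for Bmp3).

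The summed level of the 6 ligands was 2.45 ± 0.594 FPKM in TGFB1 and 19.1 ± 4.69 FPKM in Vehicle (SD, n = 3 each), 7.82-fold lower in TGFB1. Bmp4 made up 50.9 ± 9.74% of that sum in TGFB1 and 80.7 ± 4.84% in Vehicle. Bmp5, whose own level overlapped between the groups, held 16.3 ± 4.54% of the sum in TGFB1 and 2.00 ± 0.477% in Vehicle. These sums are descriptions of the members and were not tested. Gdf6, a BMP-related ligand that is not a member, is left out of them. It averaged 20.3 ± 2.49 FPKM in TGFB1 and 6.05 ± 1.15 FPKM in Vehicle, so the sums do not give the total of BMP-type ligands.

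Of the receptors, Acvr1, a type 1 receptor also called ALK2, had 39.6, 36.3 and 33.9 FPKM in TGFB1, against 21.4, 20.0 and 20.8 FPKM in Vehicle. All TGFB1 libraries were above all Vehicle libraries. The mean was 36.6 ± 2.91 FPKM in TGFB1 and 20.7 ± 0.709 FPKM in Vehicle (SD, n = 3 each), 1.77-fold higher in TGFB1. The log2 change was 0.79 (SE 0.075, limma adjusted p = 4.65e-05), and it was 0.65 with libraries scaled to equal sums.

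Bmpr1b, a type 1 receptor also called ALK6, had 4.69, 4.10 and 3.79 FPKM in TGFB1, against 5.78, 5.08 and 4.87 FPKM in Vehicle. The groups did not overlap, and the mean was 1.25-fold lower in TGFB1 (log2 change -0.27, SE 0.088, limma adjusted p = 0.0415). This call was lost without TGFB1 replicate 2 or 3 (adjusted p = 0.0985 and 0.143), without Vehicle replicate 1 or 2 (0.143 and 0.0728), without Vehicle_Tgfbr2KO replicate 1 or 3 (0.0513 and 0.0543) and without TGFB1_KO replicate 2 (0.0581).

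Bmpr1a, the type 1 receptor also called ALK3, had 21.4, 21.6 and 23.0 FPKM in TGFB1, against 21.9, 20.4 and 27.1 FPKM in Vehicle. The groups overlapped, and the log2 change was -0.06 with a 95% interval of -0.40 to 0.28 (limma adjusted p = 0.800). Bmpr2, the type 2 receptor, had 17.6, 19.4 and 16.5 FPKM in TGFB1, against 14.1, 14.2 and 17.4 FPKM in Vehicle. These groups overlapped too, with a log2 change of 0.22 and an interval of -0.13 to 0.56 (limma adjusted p = 0.328).

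The receptor mix differed with these values. Acvr1 held 58.3 ± 2.25% of the summed level of the 3 type 1 receptors in TGFB1 and 42.3 ± 2.54% in Vehicle (SD, n = 3 each). The sum itself was 62.8 ± 2.64 FPKM in TGFB1 and 49.1 ± 3.62 FPKM in Vehicle. The ratio of that sum to the 6 summed ligands was 26.7 ± 6.63 in TGFB1 and 2.66 ± 0.625 in Vehicle, 10.0-fold higher in TGFB1. It is a ratio of RNA levels only, and Gdf6, which was higher in TGFB1, is not among these ligands.

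Marker sums of some other cell types differed with this comparison. The summed level of 8 smooth muscle and pericyte markers was 2901 to 3235 FPKM in TGFB1, against 1962 to 2440 FPKM in Vehicle, without overlap. Of these 8 markers, 3 rose, 2 fell and 3 were not called, where 17.3% of all genes rose and 14.6% fell. The epithelial sum was 3.20 to 6.14 FPKM in TGFB1, against 6.21 to 9.64 FPKM in Vehicle, also without overlap. Only 2 of the 8 epithelial markers were tested, and 1 of these fell. Sums overlapped for macrophages and leukocytes, at 14.2 to 337 FPKM in TGFB1 and 36.6 to 659 FPKM in Vehicle, and for endothelial cells, at 1.64 to 19.8 FPKM in TGFB1 and 1.87 to 19.1 FPKM in Vehicle. They also overlapped for enteric glia and neurons, at 162 to 222 FPKM in TGFB1 and 182 to 227 FPKM in Vehicle, and for mesothelial cells, at 0.724 to 1.09 FPKM in TGFB1 and 0.693 to 2.49 FPKM in Vehicle. None of these markers was at 0 in all libraries, but 7 of the 8 enteric glia and neuron markers never reached 1 FPKM. Of the 8 macrophage and leukocyte markers, 1 fell and 7 were not called, with a median log2 change of -0.43. Their sums varied widely within each group, so the overlap does not show that they were unchanged. Pdgfra itself averaged 15.2 ± 4.01 FPKM in TGFB1 and 142 ± 20.7 FPKM in Vehicle (SD, n = 3 each). The part of these differences in the BMP results was not tested.

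**Figure D2:**
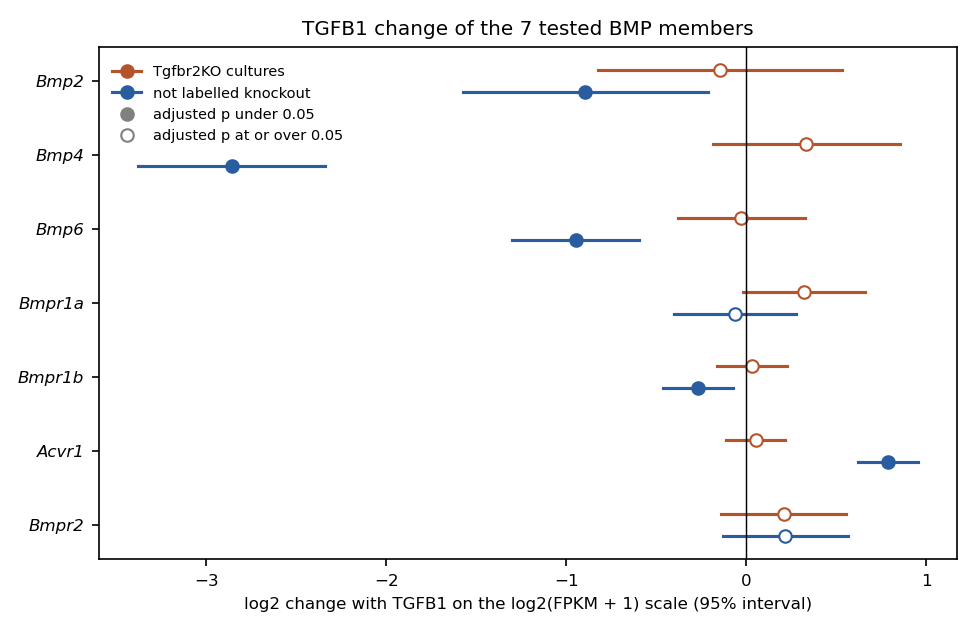
log2 change of the 7 tested BMP members on the log2(FPKM + 1) scale, for TGFB1 minus Vehicle and for TGFB1_KO minus Vehicle_Tgfbr2KO. Each point is 1 gene in 1 comparison, with its 95% interval from limma. Bmp4 lies at -2.86 for TGFB1 minus Vehicle, and in the comparison within the Tgfbr2KO cultures every interval includes 0.

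The second comparison asks whether TGFB1 acted on the same genes in cultures labelled Tgfbr2KO. No BMP member passed there, and none of all 12641 genes did (0%), with 748 genes (5.92%) below an unadjusted p of 0.05 in limma. Bmp4 had 27.4, 29.5 and 19.8 FPKM in TGFB1_KO, against 20.2, 25.7 and 14.8 FPKM in Vehicle_Tgfbr2KO. The groups overlapped, although each TGFB1_KO library was above its same-numbered Vehicle_Tgfbr2KO library, and the log2 change was 0.33 with a 95% interval of -0.19 to 0.85. Acvr1 had 21.4, 19.7 and 19.2 FPKM in TGFB1_KO, against 19.9, 20.4 and 17.7 FPKM in Vehicle_Tgfbr2KO. These levels overlapped, with a log2 change of 0.05 and an interval of -0.11 to 0.22.

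Bmp6 had 2.49, 2.00 and 1.57 FPKM in TGFB1_KO, against 2.06, 2.50 and 1.65 FPKM in Vehicle_Tgfbr2KO, a log2 change of -0.03 with an interval of -0.38 to 0.32. Bmp2 had 3.75, 2.86 and 2.50 FPKM in TGFB1_KO, against 5.97, 2.69 and 2.37 FPKM in Vehicle_Tgfbr2KO, a log2 change of -0.14 with an interval of -0.82 to 0.54. Both pairs of groups overlapped. The interval of Bmp2 was wide, with an SE of 0.31 from the shared fit of all 12 libraries, the same as in TGFB1 minus Vehicle. Among the receptors, Bmpr1a had a log2 change of 0.32 (interval -0.02 to 0.66), Bmpr2 of 0.21 (-0.14 to 0.56) and Bmpr1b of 0.03 (-0.16 to 0.23). The limma adjusted p of the 7 members ran between 0.738 and 0.966.

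The difference between these responses was tested as an interaction, the TGFB1 change in Tgfbr2KO cultures minus the TGFB1 change in cultures not labelled KO. Bmp4, Bmp6 and Acvr1 passed, 3 of the 7 tested members, 2 upward and 1 downward, where 17.6% of all genes passed, 8.38% upward and 9.26% downward. Of the genes called, 62.3% were upward with libraries scaled to equal sums, against 47.5% on the deposited scale. The count on the deposited scale is 2230 genes, or 3558 with the label number as a block within each genotype and 1430 without TGFB1 replicate 1, and the same 3 members passed in both of these fits. The interaction was 3.19 for Bmp4 (SE 0.33, limma adjusted p = 0.000233), 0.92 for Bmp6 (SE 0.22, adjusted p = 0.0190) and -0.74 for Acvr1 (SE 0.11, adjusted p = 0.00144), all on the log2(FPKM + 1) scale. It was 0.75 for Bmp2 (interval -0.21 to 1.71, adjusted p = 0.262), 0.30 for Bmpr1b (0.02 to 0.58, 0.125), 0.38 for Bmpr1a (-0.10 to 0.86, 0.255) and -0.01 for Bmpr2 (-0.50 to 0.48, 0.984). For Bmp2 and Bmpr1b a difference in response between the genotypes was therefore not shown, although each passed in the cultures not labelled KO and did not pass in the Tgfbr2KO cultures.

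Without added TGFB1, no member differed between the genotypes past the threshold, and 1.24% of all genes did, a count of 157 that was 0 to 759 when 1 library was left out. Bmp2 had 5.97, 2.69 and 2.37 FPKM in Vehicle_Tgfbr2KO, against 1.87, 0.654 and 1.96 FPKM in Vehicle. The groups did not overlap, the mean was 2.46-fold higher in Vehicle_Tgfbr2KO, and the log2 change of 0.88 (SE 0.31) did not pass (limma adjusted p = 0.152). Groups that do not overlap were found for 30.3% of all genes in this comparison. The Vehicle_Tgfbr2KO library with the highest Bmp2 level, replicate 1, also had the highest epithelial marker sum, 66.0 FPKM, with the keratin Krt8 at 25.8 FPKM. Krt8 was at 0 and 0.0542 FPKM in Vehicle_Tgfbr2KO replicates 2 and 3 and at 0 in all 3 Vehicle libraries. It was at 7.80 FPKM in TGFB1_KO replicate 1 and at 0 in TGFB1_KO replicates 2 and 3. Without Vehicle_Tgfbr2KO replicate 1 the Bmp2 change was 0.55 (limma adjusted p = 0.443). The summed level of 8 fibroblast markers was 2953 to 4332 FPKM in Vehicle_Tgfbr2KO, against 5702 to 10200 FPKM in Vehicle, without overlap. None of these 8 passed, and their median log2 change was -1.03. Pdgfra, a marker in this list, averaged 74.5 ± 25.8 FPKM in Vehicle_Tgfbr2KO and 142 ± 20.7 FPKM in Vehicle (SD, n = 3 each). The part of these differences in the BMP levels was not tested.

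Bmpr2 had 9.94, 11.4 and 11.0 FPKM in Vehicle_Tgfbr2KO, against 14.1, 14.2 and 17.4 FPKM in Vehicle. The groups did not overlap, and the log2 change was -0.46 (SE 0.16, limma adjusted p = 0.145), or an adjusted p of 0.0407 when TGFB1_KO replicate 3 was left out of the shared fit. Bmp4, Bmp6, Bmpr1a, Bmpr1b and Acvr1 overlapped between the genotypes, with log2 changes from -0.23 for Bmpr1a to 0.36 for Bmp4.

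With TGFB1 present, 6 of the 7 tested members differed between the genotypes, 4 upward and 2 downward, where 33.9% of all genes did, 15.6% upward and 18.3% downward. Scaling to equal sums turned that balance, with 64.5% of the called genes upward, against 46.1% on the deposited scale. This comparison shares its TGFB1 libraries with the first, so the calls of both rest in part on the same libraries. Bmp4 was 20.5-fold higher in TGFB1_KO than in TGFB1 (log2 change 3.56), Bmp2 9.61-fold (1.62, limma adjusted p = 0.00235) and Bmp6 7.12-fold (1.23), and none of their libraries overlapped, as for 45.4% of all genes. Acvr1 was 1.82-fold lower in TGFB1_KO (log2 change -0.83), and Bmpr1b was 1.29-fold higher (0.31, adjusted p = 0.0206, or 0.0574 to 0.0791 without TGFB1 replicate 2 or 3 or TGFB1_KO replicate 1). Bmpr2 passed with a log2 change of -0.47 (adjusted p = 0.0418) although TGFB1_KO replicate 3, at 16.7 FPKM, lay inside the TGFB1 range of 16.5 to 19.4 FPKM. The Bmpr2 call was lost under all 3 other scalings of the libraries, with an adjusted p between 0.0524 and 0.131, and in 10 of the 12 fits without 1 library, all but those without Vehicle replicate 3 or TGFB1_KO replicate 3.

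**Figure D3:**
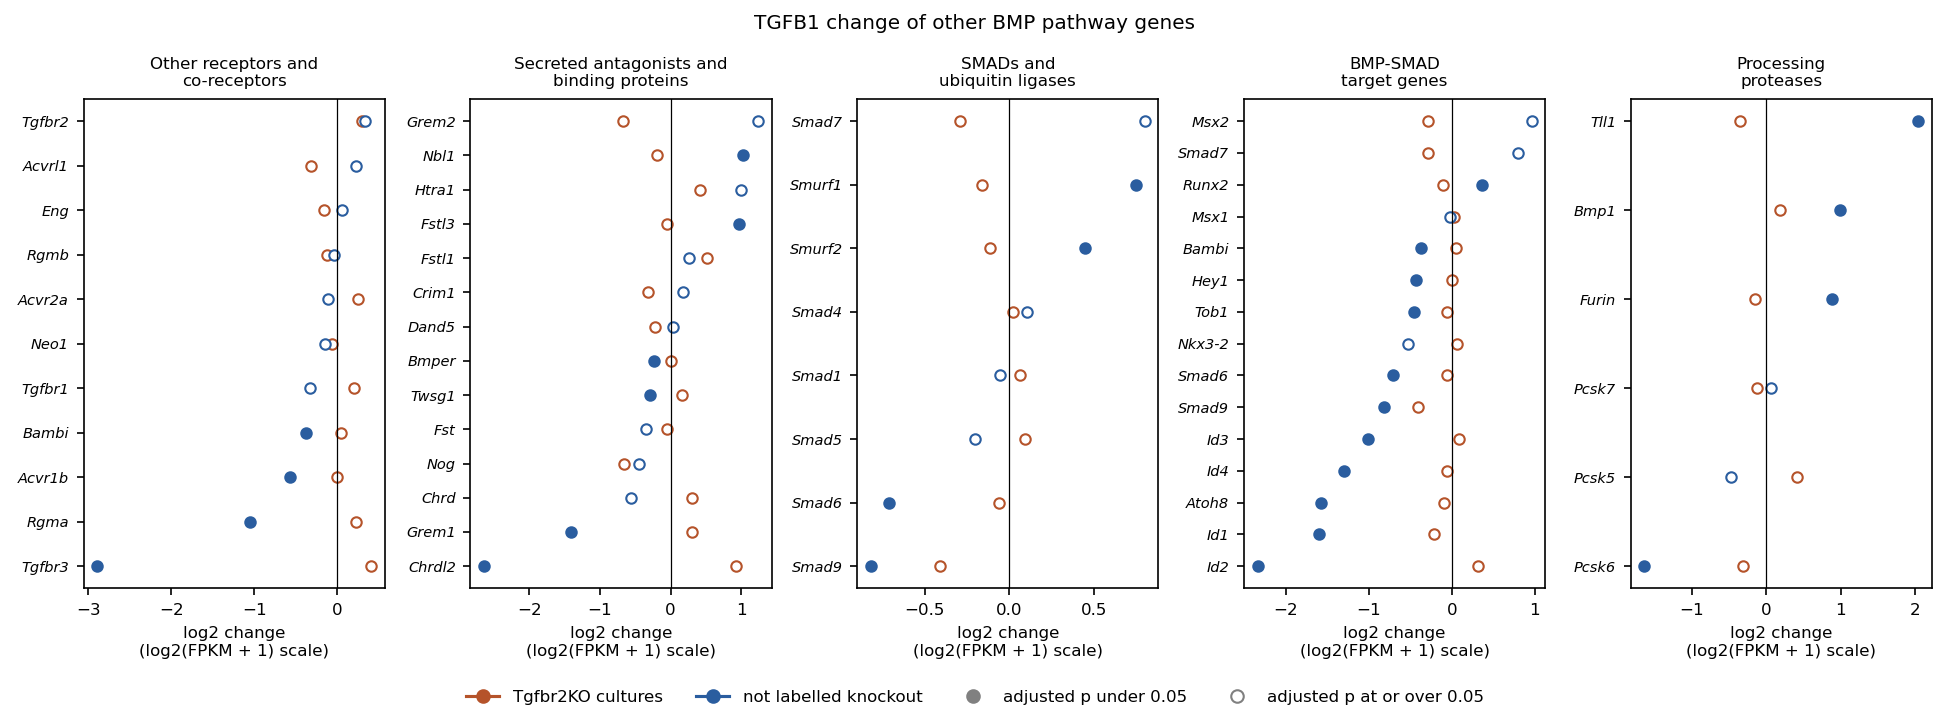
log2 change on the log2(FPKM + 1) scale for TGFB1 minus Vehicle and for TGFB1_KO minus Vehicle_Tgfbr2KO. The genes are the tested ones of the lists of other receptors, antagonists, SMADs and ubiquitin ligases, BMP-SMAD targets and proteases. Each point is a gene in 1 comparison, and filled points passed an adjusted p of 0.05 in limma. In the list of BMP-SMAD target genes 10 of 15 tested genes lie below 0 past the threshold in TGFB1 minus Vehicle.

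The other genes of the BMP pathway were read in the same fit, by lists chosen with earlier results of these data known, and some genes stand in more than one list. The counts of each list in TGFB1 minus Vehicle stand against 17.3% of all genes called upward and 14.6% called downward, 31.9% in all. In the list of BMP-SMAD target genes, 10 of 15 tested members fell and 1 rose in TGFB1 relative to Vehicle, with a median log2 change of -0.53, against 0.02 over all genes tested. Id1, Id2 and Id4 are inhibitors of differentiation that dimerise with basic helix-loop-helix factors, and Atoh8 is such a factor. Id1 had 17.7, 16.3 and 20.3 FPKM in TGFB1, against 61.7, 61.1 and 48.4 FPKM in Vehicle, a log2 change of -1.60 (limma adjusted p = 9.77e-06). Id2 fell by 2.34, Atoh8 by 1.57 and Id4 by 1.30 on the log2 scale. Between TGFB1_KO and Vehicle_Tgfbr2KO no gene of these lists passed, as for all genes tested (0%). In Vehicle_Tgfbr2KO, Id1 had 93.6, 87.3 and 101 FPKM, above all Vehicle libraries, and rose by a log2 of 0.71 relative to Vehicle (adjusted p = 0.0304). That Id1 call was lost without any 1 of the Vehicle_Tgfbr2KO libraries (0.0675 to 0.144), without Vehicle replicate 1 or 3 (0.0786 and 0.0986) and without TGFB1 replicate 1 (0.0560).

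Among the secreted antagonists, 4 of 14 tested genes fell and 2 rose, where 31.9% of all genes passed, and the median log2 change was -0.10. Grem1, which binds BMP2 and BMP4 and keeps them from their receptors, had 339, 250 and 234 FPKM in TGFB1, against 789, 642 and 740 FPKM in Vehicle. Its log2 change was -1.41 (SE 0.15, limma adjusted p = 8.51e-05), with no overlap between the groups. Chrdl2, a chordin-like BMP binding protein, averaged 0.0295 ± 0.0255 FPKM in TGFB1 and 6.76 ± 6.14 FPKM in Vehicle (SD, n = 3 each) and fell by 2.64 on the log2 scale, a call that was lost without Vehicle replicate 3 (adjusted p = 0.0523). Nbl1, a secreted BMP antagonist of the DAN family, rose by 1.03, and Fstl3, a follistatin-like binder of activin, rose by 0.97. The ratio of Grem1 to the 6 summed BMP ligands was 119 ± 45.9 in TGFB1 and 38.8 ± 6.68 in Vehicle. The sum of these 6, which leaves out Gdf6, was lower by a larger factor than Grem1.

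Of the inhibitory and BMP SMADs and their ubiquitin ligases, 2 of 8 tested genes rose and 2 fell, where 17.3% of all genes rose and 14.6% fell. Smurf1 and Smurf2, ligases that target SMADs and receptors for degradation, rose by 0.74 and 0.44 on the log2 scale. Smad9, a BMP SMAD, fell by 0.82 (a call lost without Vehicle replicate 1 or 2 or TGFB1 replicate 2 or 3, adjusted p 0.0596 to 0.0798), and Smad6, an inhibitory SMAD of the BMP branch, fell by 0.71. Smad6 had 6.41, 7.47 and 6.11 FPKM in TGFB1, against 12.09, 13.04 and 9.65 FPKM in Vehicle, with no overlap.

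Among the other receptors and co-receptors, 4 of 11 tested genes fell and none rose, where 14.6% of all genes fell and 17.3% rose, 31.9% in all. The median log2 change of this list was -0.14. Tgfbr3, the co-receptor betaglycan, averaged 3.51 ± 1.57 FPKM in TGFB1 and 31.1 ± 3.93 FPKM in Vehicle (SD, n = 3 each) and fell by 2.89. Rgma, a BMP co-receptor, fell by 1.05, Acvr1b, an activin type 1 receptor, by 0.57, and Bambi, a pseudoreceptor without a kinase, by 0.37. The Rgma call was lost without Vehicle replicate 3 or TGFB1 replicate 1 (adjusted p = 0.0645 and 0.0630), and the Bambi call without TGFB1 replicate 3 (0.0502). Of the other BMP and GDF ligands only 3 of 15 were tested. Gdf6, a BMP-related ligand, averaged 20.3 ± 2.49 FPKM in TGFB1 and 6.05 ± 1.15 FPKM in Vehicle, a log2 change of 1.60 (limma adjusted p = 0.000738), while Gdf15, a stress-induced member of the superfamily, fell by 0.92 (adjusted p = 0.0401). The Gdf15 call was lost without Vehicle replicate 1 or 2 (0.136 and 0.112), TGFB1 replicate 2 or 3 (0.0781 and 0.142), Vehicle_Tgfbr2KO replicate 2 or 3 (0.0551 and 0.0513) or TGFB1_KO replicate 2 (0.0534).

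Of the proteases that process BMPs and their binding proteins, 3 of 6 tested genes rose and 1 fell, where 17.3% of all genes rose and 14.6% fell. Tll1 and Bmp1 are tolloid proteases that cleave chordin and procollagen and are not BMP ligands despite the name of Bmp1. Tll1 averaged 38.0 ± 4.88 FPKM in TGFB1 and 8.47 ± 0.816 FPKM in Vehicle (SD, n = 3 each), and Bmp1 339 ± 17.8 FPKM in TGFB1 and 171 ± 20.7 FPKM in Vehicle, with log2 changes of 2.04 and 0.99. Furin, a convertase that cleaves BMP proproteins, rose by 0.89 and Pcsk6, another such convertase, fell by 1.63.

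Among 7 genes of telocytes and villus fibroblasts, the cells best known for BMP production, Nrg1 and Wnt5a rose by 0.96 and 0.92 on the log2 scale, and Pdgfra and Fgf7 fell by 3.16 and 1.99. In all, 3 of the 7 fell and 2 rose, where 14.6% of all genes fell and 17.3% rose. Of 7 genes of trophocytes and other fibroblasts of the crypt base, 6 fell, among them Cd34, Sfrp1, C3 and Rspo1 with log2 changes of -3.81, -3.45, -3.09 and -2.88, and 1 rose. The median of this list was -2.88, and it shares Grem1 with the list of antagonists.

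The genes whose levels ran most like those of each member were found by Pearson's r of log2(FPKM + 1) over all 12 libraries, as a description without a test. The libraries share their groups, so a gene that is low in the 3 TGFB1 libraries alone gives a high r with Bmp4. For Bmp4 the 3 closest genes were Adamts9, Nedd4l and Nkd2, at r of 0.996, 0.992 and 0.992. For Bmp6 they were Fth1, Adra1d and Tnfrsf1b, at r between 0.979 and 0.982, and for Bmp2 they were Gabpa, Arhgap6 and Zfp229, at r between 0.959 and 0.961. Acvr1 ran closest to Golim4, Slc38a10 and Col27a1, at r between 0.984 and 0.987. Adamts9 averaged 18.1 ± 2.84 FPKM in TGFB1_KO, 15.8 ± 4.07 FPKM in Vehicle_Tgfbr2KO, 1.02 ± 0.172 FPKM in TGFB1 and 12.97 ± 1.89 FPKM in Vehicle (SD, n = 3 each). Golim4 averaged 35.4 ± 2.16, 35.4 ± 2.29, 71.9 ± 3.66 and 37.1 ± 1.73 FPKM in the same groups.

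For the receptors without a call in the first comparison the closest genes were Lmbr1, Prkar1a and Lmo4 for Bmpr1a, at r between 0.969 and 0.979, and Jmy, Sec16b and Glg1 for Bmpr2, at an r of 0.978 each. Bmpr1b was closest to Aldh7a1, Ppp1r14a and C1qtnf2, at r of 0.955, 0.922 and 0.918. By the ratio of the highest to the lowest of the 12 libraries, Bmpr1b varied least of the 10 members, 1.54-fold (3.79 to 5.84 FPKM), and Bmp2 most, 57.6-fold (0.104 to 5.97 FPKM).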

How the data were processed

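RNA from 12 libraries was purified with a column kit and made into libraries from polyadenylated RNA by a sequencing provider, per the labels' protocols. The authors deposited 1 table of FPKM values for 25203 gene symbols, of which 4702 were 0 in every library. The submitters' processing notes name kallisto 0.46.1, DESeq2 1.40.1 and mm9, and the steps from these to the FPKM values and the scaling between libraries are not given in the sources used here. No genome of that build was used, so no gene coordinates are given beyond the RefSeq promoter windows.

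FPKM values were analysed as log2(FPKM + 1) with limma 3.58.1 in R 4.3.3. The 12641 genes that reached 1 FPKM in 3 or more of the 12 libraries entered 1 fit of 4 group means, moderated by empirical Bayes with a mean-variance trend and with 8 residual degrees of freedom. For 5 comparisons, p-values were adjusted over all genes tested (Benjamini and Hochberg, threshold 0.05). With 3 libraries a group and no statement that they come from separate animals, p-values measure the spread between libraries. Depth was estimated from 3835 genes with 1 transcript, whose low FPKM values step by whole reads (67.7% to 74.0% of low values within 0.1 reads of a whole number), and read numbers are approximate.

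The members and gene lists were chosen with earlier results of these data known. Beside the members, the genes named are up to 4 called members of each pathway list with the largest log2 change in TGFB1 minus Vehicle, together with Grem1, Id1, Smad6 and Tgfbr2, and the 3 genes closest to each tested member. Krt8 falls outside that rule and was named after its values were seen. Group labels and replicate numbers were taken from the labels, which carry 31, 121 and 123 for replicates 1, 2 and 3. Libraries of 1 number deviated together from the means of their groups within both genotypes. The correlations across genes were 0.391, 0.445 and 0.408 between TGFB1 and Vehicle and 0.588, 0.227 and 0.529 between TGFB1_KO and Vehicle_Tgfbr2KO. Between genotypes, libraries of 1 number did so in some pairs only (0.336, -0.0867 and 0.412 for Vehicle_Tgfbr2KO and Vehicle, and 0.337, 0.00945 and 0.276 for TGFB1_KO and TGFB1). The labels do not say what the numbers are. They were read as pairing libraries within a genotype, and the main fit held no term for them. The alternatives were this number as a block, pseudocounts of 0.1 and 0.5, other filters, 3 other scalings, no variance trend, a fit of the 2 compared groups alone and leaving out each library. The scripts were tested on simulated data. Tables and plots were made with Python 3.11.15, numpy 2.4.6, pandas 2.3.3 and matplotlib 3.10.9.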

Additional observations from a re-analysis of the deposited data

Results flagged for a closer look

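The change of 3 BMP genes on TGFB1 treatment differed between Tgfbr2KO cultures and cultures not labelled KO by the interaction test in limma. For Bmp4 the change in Tgfbr2KO cultures minus the change in the others was 3.19 on the log2(FPKM + 1) scale, made up of 0.33 in Tgfbr2KO cultures and -2.86 in the others. For Bmp6 it was 0.92, from -0.03 in Tgfbr2KO cultures and -0.95 in the others. For Acvr1 it was -0.74, from 0.05 in Tgfbr2KO cultures and 0.79 in the others.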

How the results depend on the processing

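The calls of Bmp4, Bmp6 and Acvr1 in TGFB1 minus Vehicle and in the interaction were kept, with the same direction, under every alternative in which the gene was tested. With a pseudocount of 0.1 the log2 changes in TGFB1 minus Vehicle were -3.54 for Bmp4 and -2.10 for Bmp6. The count of 5 called members in that comparison was 3 with no filter, 2 with a filter of 5 FPKM (which left Bmp2 and Bmp6 untested), 3 with only the 2 groups compared, and 3 to 4 when 1 library was left out. The members lost were Bmp2 (10 of 22 alternatives, adjusted p 0.00683 to 0.139 over all of them) and Bmpr1b (10 of 24, 0.00721 to 0.143). The member count within the Tgfbr2KO cultures stayed at 0, and over all genes it was 0 or 1. In Vehicle_Tgfbr2KO minus Vehicle it was 0 to 1 when 1 library was left out, the 1 being Bmpr2.

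The replicate block, with the label number as a term over all libraries, changed no call of a member: the counts stayed at 5, 0, 3, 0 and 6 in the 5 comparisons. As a block within each genotype it also changed none in TGFB1 minus Vehicle, TGFB1_KO minus Vehicle_Tgfbr2KO and the interaction, and it cannot be fitted to the comparisons between genotypes. Over all genes the interaction had 3658 calls with the block over all libraries, against 2230 without it. In Vehicle_Tgfbr2KO minus Vehicle there were 1897 with the block, 71 with no filter, 90 with no variance trend and 0 with only the 2 groups compared, against 157. It was 759 without TGFB1_KO replicate 3, and 0 without Vehicle replicate 3 or Vehicle_Tgfbr2KO replicate 1. In TGFB1 minus Vehicle and TGFB1_KO minus TGFB1 the counts over all genes moved by less than 1.5 times. Depth limits Bmp3, Bmp5 and Bmp7, which stayed under 1 FPKM, and the levels of Bmp2 and Bmp6 in TGFB1.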
